A study of Mus musculus with 4 samples.

Results

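Polycomb repressive complex PRC2 was described here through 10 mouse genes, taken as a named list: the 6 core subunits Ezh1, Ezh2, Eed, Suz12, Rbbp4 and Rbbp7 and the 4 accessory subunits Jarid2, Mtf2, Phf1 and Phf19. They were 10 of the 21887 protein-coding genes of the RefSeq gene table. Accessibility was measured by ATAC-seq, in which the transposase Tn5 cuts open chromatin, in haematopoietic stem cells (HSCs). Marrow donors were male C57BL/6 mice of wild-type genotype, 8 weeks old. The sorted gate was lineage-negative, Sca-1-positive and Kit-positive (LSK), lacked CD34, CD48 and Flt3, carried Slam1, and was divided into CD93-positive and CD93-negative HSCs, with 2 libraries each. No agent or mutant allele was given to either group, and the labels do not say whether libraries came from separate mice, so the spread between them may be technical. The deposited data are 1 list of peak summits (the single base of highest signal of each peak) per library.

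The lists differed greatly in length, which limits every comparison below. There were 21 and 711 summits for CD93-positive replicates 1 and 2, with 7989 and 2755 for the CD93-negative ones. Read depth is unknown. Of 12 fixed HSC marker genes, Tal1 alone had a summit within 1000 bp of a gene end, in CD93-negative replicate 1, and among 26 markers of B, T, endothelial, myeloid and erythroid cells Cd3d alone did, in the same library. The labelled cell type could therefore not be checked from these lists. Exact permutation of 2 libraries against 2 cannot give a two-sided p below 0.333, and no test of the groups was made on the PRC2 genes.

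PRC2 methylates lysine 27 of histone H3, a mark of silenced developmental genes. Ezh1 or Ezh2 is the methyltransferase, Eed binds the methylated histone and supports the catalytic subunit, Suz12 is the scaffold, and Rbbp4 and Rbbp7 are closely related histone-binding proteins that also serve other chromatin complexes. Accessory subunits divide the complex into forms: Mtf2, Phf1 and Phf19 are the Polycomb-like proteins, which help it to bind CpG-rich DNA, and Jarid2 is a DNA-binding partner of a separate form. In blood formation, Ezh2 is known from proliferating stem and progenitor cells and Ezh1 from adult HSCs.

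Most PRC2 summits lay at promoters. The 250 bases before the RefSeq start site are given for the 4 core genes whose promoter held a summit in at least 2 libraries. They are also given for Phf19, the one PRC2 gene with no summit at its start in any library. They are from the RefSeq promoter table (GRCm38.p6, the assembly of mm10) and run 5′ to 3′ along the gene. Capitals mark matches to the E2F, NFY, SP/KLF and YY1 motifs spelled out further below.
Ezh2: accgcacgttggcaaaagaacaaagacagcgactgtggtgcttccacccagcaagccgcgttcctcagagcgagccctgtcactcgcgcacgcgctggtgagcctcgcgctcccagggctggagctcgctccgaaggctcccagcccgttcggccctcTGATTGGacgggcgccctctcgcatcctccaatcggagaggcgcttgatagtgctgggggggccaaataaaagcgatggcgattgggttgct
Suz12: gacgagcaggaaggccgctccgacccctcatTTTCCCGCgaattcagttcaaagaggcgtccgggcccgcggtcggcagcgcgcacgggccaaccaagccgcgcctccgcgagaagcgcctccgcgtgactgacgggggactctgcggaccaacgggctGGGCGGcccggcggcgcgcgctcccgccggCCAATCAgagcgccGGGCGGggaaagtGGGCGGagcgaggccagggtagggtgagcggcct
Rbbp4: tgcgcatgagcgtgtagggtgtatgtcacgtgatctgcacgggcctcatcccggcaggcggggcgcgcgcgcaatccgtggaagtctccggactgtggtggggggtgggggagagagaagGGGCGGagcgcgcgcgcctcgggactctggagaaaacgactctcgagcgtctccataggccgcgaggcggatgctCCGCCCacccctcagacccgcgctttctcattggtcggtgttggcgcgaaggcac
Rbbp7: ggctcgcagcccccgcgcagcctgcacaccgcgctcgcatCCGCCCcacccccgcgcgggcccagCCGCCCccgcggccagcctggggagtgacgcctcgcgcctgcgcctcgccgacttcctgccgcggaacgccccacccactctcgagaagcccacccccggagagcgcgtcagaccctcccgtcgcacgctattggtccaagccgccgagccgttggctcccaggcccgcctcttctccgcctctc
Phf19: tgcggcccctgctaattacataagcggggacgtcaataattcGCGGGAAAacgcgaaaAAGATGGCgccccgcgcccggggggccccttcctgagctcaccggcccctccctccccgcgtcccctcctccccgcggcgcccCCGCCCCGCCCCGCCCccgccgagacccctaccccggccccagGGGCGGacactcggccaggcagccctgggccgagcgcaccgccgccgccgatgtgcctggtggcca
In mm10 coordinates these are chr6:47595031-47595280 (minus strand), chr11:79992856-79993105 (plus), chr4:129335371-129335620 (minus), chrX:162760122-162760371 (plus) and chr2:34913977-34914226 (minus). Counted from 1 at the first base printed, the summit lay at base 142 of Ezh2 in CD93-negative replicate 1 and at base 115 in replicate 2, and at bases 236 and 239 of Suz12. In Rbbp4 it lay at base 202 in CD93-positive replicate 2 and at bases 175 and 180 in CD93-negative replicates 1 and 2. In Rbbp7 it lay at base 201 in CD93-positive replicate 2 and at base 139 in CD93-negative replicate 1.

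All 6 core genes had an open start site in CD93-negative replicate 1, 4 of them in CD93-negative replicate 2 and 2 in CD93-positive replicate 2. None did in CD93-positive replicate 1. Of all protein-coding genes, 32.2%, 12.9%, 3.22% and 0.0183% had a summit within 1000 bp of either end in these libraries, in this order. No core gene had any other summit in its body or within 10000 bp of it. Positions below are on mm10. The score of a summit is the authors' MACS2 score, taken as a −log10 p or q value against the library's own background, so it ranks sites within a list and is not scaled between libraries. Rank 1 is the highest score of a list.

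Rbbp4 (gene ID 19646, chromosome 4, 129307100 to 129335370) carried the strongest PRC2 start site. Its summit ranked 88 of 711 in CD93-positive replicate 2 (score 14.5, position 129335419), 20 of 7989 in CD93-negative replicate 1 (score 121, 129335446) and 95 of 2755 in CD93-negative replicate 2 (score 22.8, 129335441). The 3 summits lay 49, 76 and 71 bp before the start site, in the 161 bp between Rbbp4 and the divergent gene Zbtb8os, so the site cannot be assigned to either gene alone. It was the single PRC2 start site listed in 3 libraries.

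Rbbp7 (gene ID 245688, chromosome X, 162760372 to 162779090), its close relative, was the other core gene with a site in a CD93-positive library. It ranked 476 of 711 in CD93-positive replicate 2 (score 6.74, 50 bp before the start) and 2343 of 7989 in CD93-negative replicate 1 (score 32.1, 112 bp before the start). CD93-negative replicate 2, although its list was longer than that of CD93-positive replicate 2, had no summit nearer than 50.5 kb. Presence at Rbbp7 thus did not follow the CD93 groups.

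The methyltransferase genes differed in rank. At Ezh2 (gene ID 14056, chromosome 6, 47530274 to 47595270) the summit ranked 1535 of 7989 in CD93-negative replicate 1 (score 40.5, position 47595139) and 1151 of 2755 in CD93-negative replicate 2 (score 10.9, position 47595166). These lay 109 and 136 bp before the listed start, inside the gene model, which reaches further upstream, and they lay 70 and 43 bp from the start of the divergent lncRNA gene F830010H11Rik. At Ezh1 (gene ID 14055, chromosome 11, 101191115 to 101226463) the single summit, 64 bp inside the gene, ranked 5373 of 7989 in CD93-negative replicate 1 (score 14.3). Ezh1 was absent from CD93-negative replicate 2, whose nearest summit was 71.1 kb away. Ezh2 was therefore placed above Ezh1 in the 1 list that held both.

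Suz12 and Eed were each open in both CD93-negative libraries. At the scaffold gene Suz12 (gene ID 52615, chromosome 11, 79993106 to 80034123) the summits lay 15 and 12 bp before the start and ranked 1694 of 7989 and 980 of 2755 (scores 38.9 and 11.8). At Eed (gene ID 13626, chromosome 7, 89954654 to 89980976) they lay further in, 371 and 394 bp inside the gene, and ranked 4018 of 7989 and 2508 of 2755 (scores 20.5 and 5.17). The Eed site was thus near the end of the list of replicate 2. The 2 libraries placed the Suz12 summit within 3 bp and the Eed summit within 23 bp of each other. In CD93-positive replicate 2 the nearest summits to Ezh1, Suz12, Eed and Ezh2 were 0.25, 0.75, 2.69 and 5.27 Mb away.

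**Figure D1:**
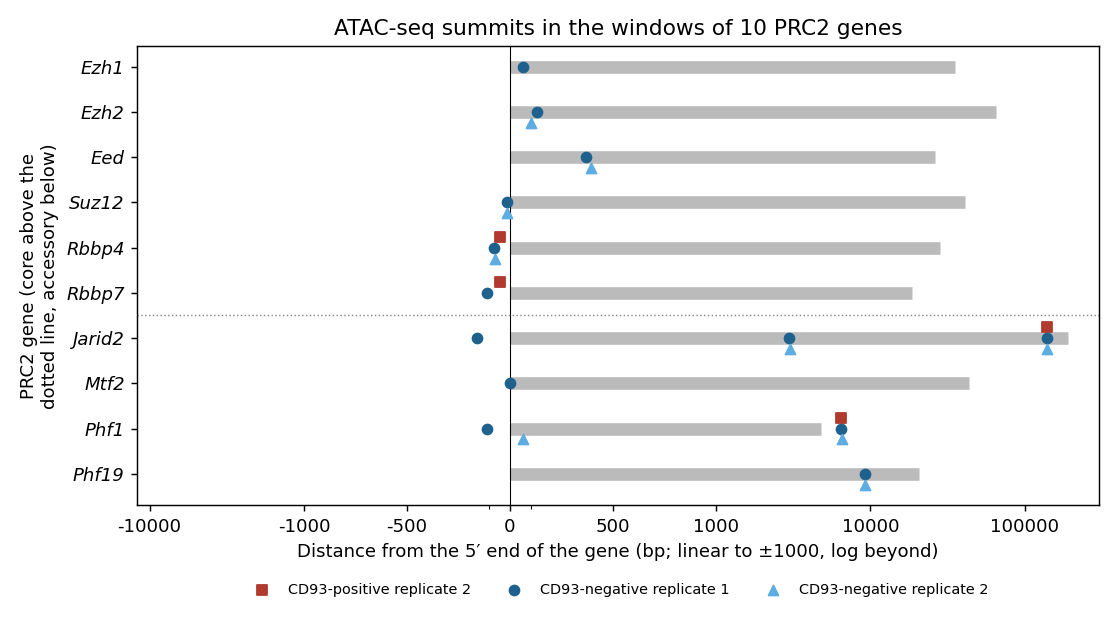
Summits (points) in the window of each PRC2 gene by distance from the gene's 5′ end in bp, linear to 1000 bp and logarithmic beyond, with grey bars for gene bodies and colours for libraries. CD93-positive replicate 1 had none. Core summits all lie at the 5′ end. Jarid2 and Phf1 also have summits farther from it, those of Phf1 beyond its 3′ end, and Phf19 has summits inside the gene alone.

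The accessory genes were less uniform: 3 of 4 had an open start in CD93-negative replicate 1, Phf1 alone in CD93-negative replicate 2, and none in either CD93-positive library. The shares of all genes with a gene-end summit were 32.2% and 12.9% in CD93-negative replicates 1 and 2. They were 0.0183% and 3.22% in CD93-positive replicates 1 and 2. Mtf2 (gene ID 17765, chromosome 5, 108065660 to 108109219) had a summit 12 bp before its first listed start in CD93-negative replicate 1, at rank 2688 of 7989 (score 29.2). No summit lay at its second listed start, within the gene, and the nearest in CD93-negative replicate 2 was 23.4 kb outside the gene. The start of Phf1 (gene ID 21652, chromosome 17, 26933127 to 26937908) was listed at rank 2809 of 7989 in CD93-negative replicate 1 (score 28.2, 110 bp before the start) and 2255 of 2755 in replicate 2 (score 6.3, 63 bp inside). The start of Jarid2 (gene ID 16468, chromosome 13, 44730774 to 44921643) was listed in CD93-negative replicate 1 alone, at rank 2523 (score 30.7, 162 bp before the first start). These starts thus stood between 31.6% and 81.9% of the way down their lists.

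Open sites away from the start were found in the windows of 3 of 4 accessory genes and 0 of 6 core genes, a difference that was not tested. At Phf1 the site lay inside the neighbouring gene Cuta, so Jarid2 and Phf19 alone had one of their own. PRC2 genes with a window summit but none at a gene end numbered 2 of 4 in CD93-positive replicate 2, 1 of 10 in CD93-negative replicate 1 and 2 of 7 in replicate 2, against 30.4%, 26.0% and 30.3% of all genes with a window summit. The RefSeq table holds no exons, so whether these sites are exonic or intronic was not determined.

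Jarid2, the longest of the 10 genes at 190.9 kb (the median protein-coding gene is 17169 bp), had 2 such sites. The nearer, 3.0 kb inside the gene, ranked low in both CD93-negative lists, at 6566 of 7989 and 2543 of 2755 (scores 9.8 and 5.0). The farther, 138.9 kb inside the gene (44869648 to 44869684), was listed in 3 libraries within 36 bp. It ranked 30 of 711 in CD93-positive replicate 2 (score 23.5), 2555 of 7989 in CD93-negative replicate 1 (score 30.4) and 2470 of 2755 in CD93-negative replicate 2 (score 5.43). It was the highest-ranked PRC2 site of the CD93-positive list, while 7 of the other 12 PRC2 sites of CD93-negative replicate 1 and 6 of the other 8 of replicate 2 ranked above it. It was thus not among the first 711 summits of either CD93-negative list. Scores are not scaled between libraries, and whether the site differs between them was not tested.

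Phf19 (gene ID 74016, chromosome 2, 34893752 to 34914353) had no summit at its start in any library. Its one site lay 9.2 kb inside the gene, 8.8 kb from the nearest listed start of any gene, and was among the strongest in the CD93-negative lists. It ranked 592 of 7989 in replicate 1 (score 58.8, position 34905177) and 33 of 2755 in replicate 2 (score 27.7, position 34905144). In CD93-positive replicate 2 the nearest summit was 121.8 kb outside the gene.

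The other site in the window of Phf1 belonged by position to its neighbour. It lay 1714 to 1799 bp beyond the 3′ end of Phf1, inside Cuta, a gene transcribed towards Phf1 whose 3′ end lies 63 bp from the end of Phf1. It ranked 165 of 711 in CD93-positive replicate 2 (score 11.2), 143 of 7989 in CD93-negative replicate 1 (score 84.5) and 187 of 2755 in CD93-negative replicate 2 (score 19.6). The nearest listed start was that of Cuta, 126 bp from the middle of the site. The count of Phf1 in CD93-positive replicate 2 rests on this site alone.

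**Figure D2:**
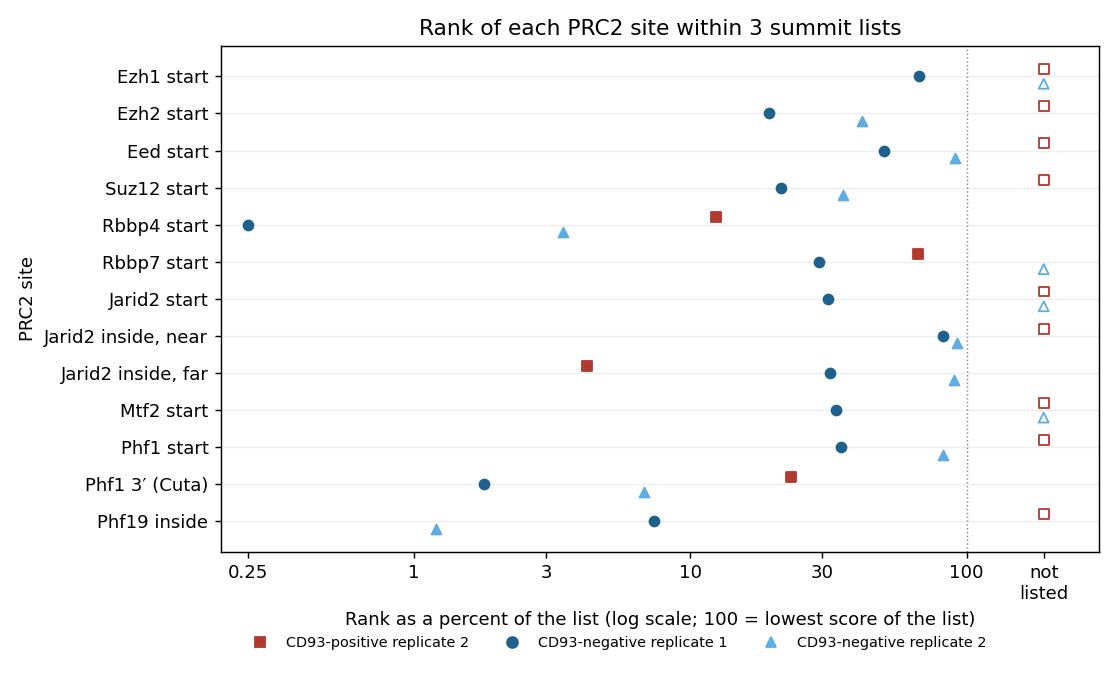
Rank of each of the 13 PRC2 sites as a percent of its list, on a logarithmic axis (left is the highest score), in the 3 longer lists, with open symbols for sites not listed. Rbbp4, the Cuta site beside Phf1 and the site inside Phf19 are the 3 highest-ranked PRC2 sites within each CD93-negative list, and the far site inside Jarid2 is the highest-ranked within CD93-positive replicate 2.

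Over all windows there were 26 summits, 16 at a start and 10 elsewhere, which made 13 sites when summits within 250 bp were joined. Of these, 3 sites were in 3 libraries, 7 in 2 and 3 in 1, and 0 were in all 4. The 3 seen once were the starts of Ezh1, Jarid2 and Mtf2, all in CD93-negative replicate 1. At a shared site the summits of different libraries lay 3 to 173 bp apart.

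More PRC2 genes had a summit in the CD93-negative than in the CD93-positive libraries. In the gene body with 10000 bp on either side, 0 of the 10 genes had one in CD93-positive replicate 1 and 4 in replicate 2, where 0.0411% and 4.62% of all protein-coding genes did. In CD93-negative replicates 1 and 2 the counts were 10 and 7, against 43.5% and 18.5% of all genes. The group means were 2.0 ± 2.83 and 8.5 ± 2.12 genes (SD, n = 2), a difference of 6.5, and the groups did not overlap. Core genes numbered 0, 2, 6 and 4 of 6 in the 4 libraries in this order, and accessory genes 0, 2, 4 and 3 of 4.

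The same order was seen at gene ends. Within 1000 bp of either end, CD93-positive replicate 1 listed a summit at 0 PRC2 genes and replicate 2 at 2, against 0.0183% and 3.22% of all genes. CD93-negative replicate 1 listed one at 9 and replicate 2 at 5, against 32.2% and 12.9%. All of these lay at the start, none at the 3′ end. The share of PRC2 genes was above that of all genes in each of the 3 longer lists by both rules, and no test of this was made. Phf1 alone of the PRC2 genes was shorter than the median protein-coding gene (17169 bp). The window rule reaches further in longer genes, and gene length was not matched.

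Both CD93-negative lists were longer than both CD93-positive lists, so group and list length cannot be told apart. CD93-positive replicate 1, with 21 summits, was not matched. When the CD93-negative lists were reduced to their 711 highest-scoring summits, the length of CD93-positive replicate 2, each had 3 PRC2 genes by window, against 4.79% and 5.05% of all genes in replicates 1 and 2. These were Rbbp4, Phf1 (through the Cuta site) and Phf19 in both, compared with Rbbp4, Rbbp7, Jarid2 and Phf1 in CD93-positive replicate 2. At gene ends 1 gene was left in each, Rbbp4, against 3.28% and 3.38% of all genes. At equal length CD93-positive replicate 2 thus had no fewer PRC2 genes than either CD93-negative library.

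**Figure D3:**
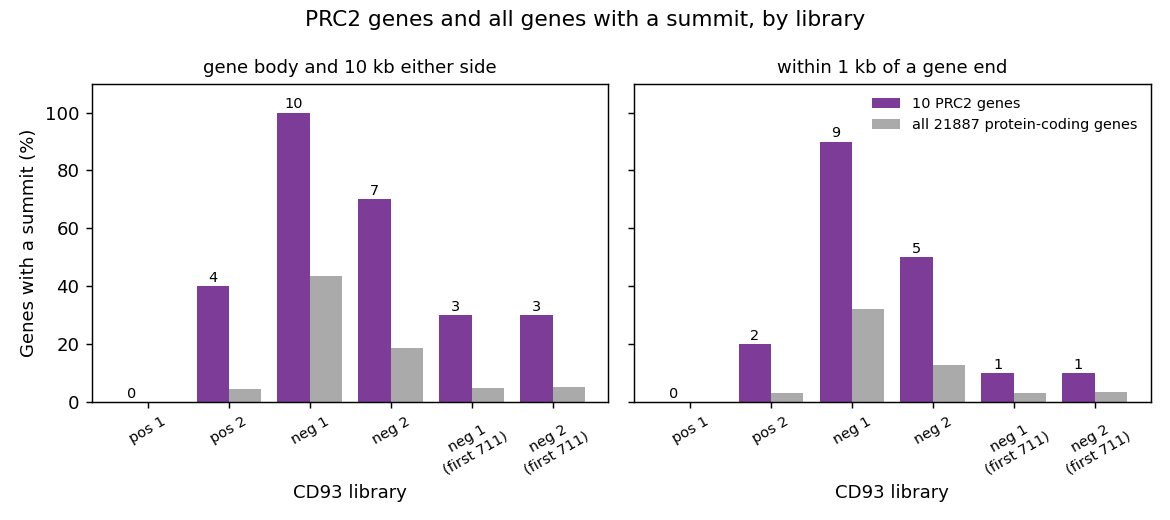
Percent of genes with a summit in each library (bars, axis from 0), for the 10 PRC2 genes (number above each bar) and for all 21887 protein-coding genes, by window (left) and gene end (right). With 711 summits in each list, 3, 3 and 4 PRC2 genes remain by window.

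The listing of PRC2 sites in CD93-positive replicate 2 was set beside that of all sites of the same standing. Of 386 sites among the first 711 of both CD93-negative lists, CD93-positive replicate 2 listed 250 (64.8%). The 3 PRC2 sites of this class were the Rbbp4 start and the Cuta site beside Phf1, which it listed, and the site inside Phf19, which it did not. Of 1631 sites in both CD93-negative lists but below rank 711 in each, it listed 155 (9.5%). Of the 6 PRC2 sites there, it listed the far Jarid2 site and not the starts of Ezh2, Suz12, Eed and Phf1 or the near Jarid2 site. Of 5335 sites below rank 711 in CD93-negative replicate 1 and not in replicate 2, it listed 90 (1.69%), among them Rbbp7 but not Ezh1, Mtf2 or the Jarid2 start. Absence of the starts of Ezh1, Ezh2, Eed, Suz12 and Mtf2 from this list was thus shared with most sites of the same standing. Whether the HSC fractions differ at these genes was not tested.

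In each of the 3 longer lists the median score of the PRC2 starts was above that of all gene-end summits, while some starts scored below it. Gene-end summits were those within 1000 bp of either end of any gene, so the 2 sets are not alike. In CD93-negative replicate 1 the median score of the 9 starts was 30.7, against 23.0 for all 6039 gene-end summits, and 7 of 9 exceeded that median. In CD93-negative replicate 2 the median of 5 starts was 10.9 against 10.0 for 2288 summits, with 3 of 5 above. In CD93-positive replicate 2 the 2 starts had a median of 10.6 against 8.07 for 587 summits, with 1 above.

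The promoters of the PRC2 genes were CpG-rich by their median, as were promoters with a summit. All 10 genes were in the promoter table, with 12 start sites, since Jarid2 and Mtf2 have 2 each. Over windows of 300 bases, 250 before to 50 after a start, their median GC content was 64.3% and their median CpG observed-to-expected ratio 0.911. The medians were 56.3% and 0.567 over all 21263 promoters of protein-coding genes, and 64.3% and 0.855 over the 5080 promoters holding a summit in CD93-negative replicate 1. Phf19, with no summit at its start, had 74.3% GC and 38 CpGs, close to Rbbp7 with 75.7% and 38. The second start of Mtf2, which had no summit, was CpG-poor, with 2 CpGs and 45.7% GC. The Ezh1 and Eed windows also held no summit, since theirs lay further inside the gene. Eed had 54.7% GC, below the median of all promoters, and a CpG ratio of 0.758, above it.

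Motif matches, searched on both strands, are descriptions of letters in these windows only. The E2F motif (TTTCCCGC or TTTGGCGC) was found in 3 of the 12 PRC2 promoters, those of Ezh2, Suz12 and Phf19, and in 2.02% of all promoters and 3.96% of those with a summit in CD93-negative replicate 1. In Ezh2 its first base lay at 4 after the start, so it is not in the printed stretch, and in Suz12 and Phf19 at -219 and -208. NFY (CCAATCA) was in 2, Ezh2 and Suz12, and in 9.11% of all promoters and 16.4% of those with a summit. The SP/KLF motif (GGGCGG) was in 8, with 4 matches each in Rbbp7, Phf1 and Phf19, and in 46.2% of all promoters and 78.1% of those with a summit. The Rbbp7 matches at 11 and 39 after the start are not in the printed stretch. The 3 adjoining Phf19 matches overlap each other by single bases. YY1 (AAGATGGC) was in Phf19 alone, and in 3.05% of all promoters and 6.63% of those with a summit.

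Among the other motifs, RUNX and TATA alone had a match. ETS (CCGGAAGT), NRF1 (GCATGCGC), CRE (TGACGTCA) and the GATA motif (AGATAA) were in none of the 12. They were in 5.15%, 3.52%, 2.23% and 9.65% of all promoters, and in 11.9%, 7.97%, 4.8% and 3.62% of those with a summit. RUNX (TGTGGT) was in 3, Ezh2, Rbbp4 and Jarid2, against 15.0% of all promoters and 10.9% of those with a summit. The TATA motif (TATAAA) was in 1, at the second start of Jarid2, against 12.6% and 4.47%. The Ezh1 and Eed promoters held no match to any of the 10 motifs. In Rbbp4 the summit of CD93-positive replicate 2 lay next to an SP/KLF match, at base 202 against a last base of 201, while the CD93-negative summits lay before it, at bases 175 and 180.

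**Figure D4:**
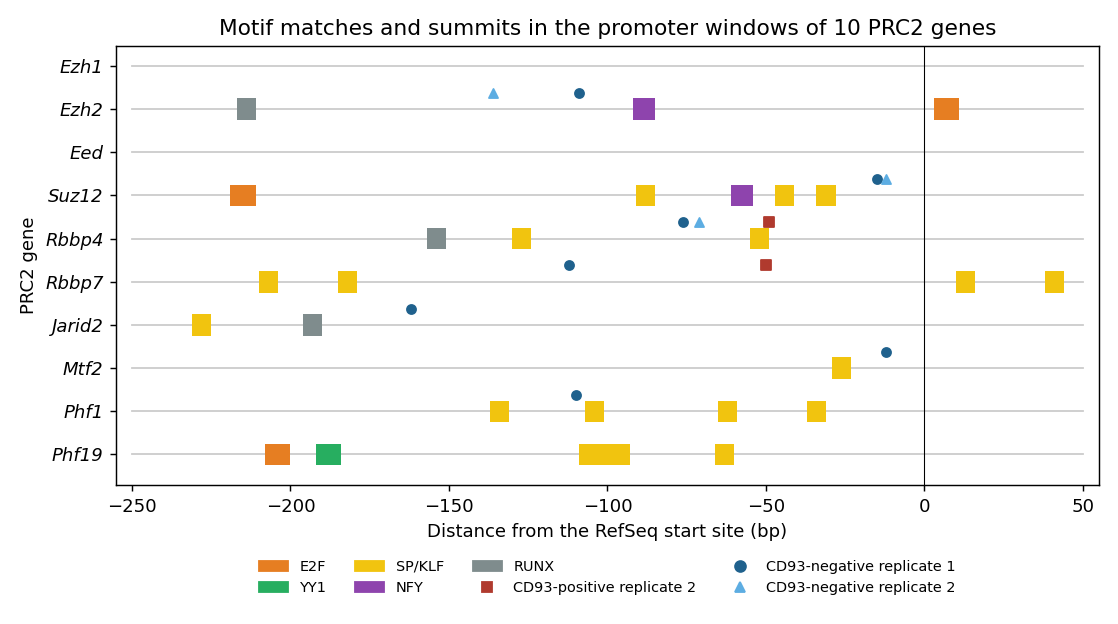
Motif matches (boxes) and summits (points) by distance in bp from the first RefSeq start site of each PRC2 gene, over 300 bases. E2F boxes are at Ezh2, Suz12 and Phf19, no box is at Ezh1 or Eed, and Phf19 has boxes but no summit.

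Genes of related Polycomb complexes were reached in the same order of libraries. Over 33 other genes (5 further PRC2 accessory genes, 22 of PRC1, which ubiquitinates histone H2A, 4 of the H2A deubiquitinase and 2 demethylases of the PRC2 mark), a gene-end summit was found at 0 and 1 in the CD93-positive libraries (replicates 1 and 2), and at 17 and 8 in the CD93-negative ones. All genes gave 0.0183%, 3.22%, 32.2% and 12.9% by this rule. By window the counts were 0, 5, 25 and 16 of 33, against 0.0411%, 4.62%, 43.5% and 18.5% of all genes. PRC1 gave 12 and 5 of 22 at gene ends in CD93-negative replicates 1 and 2, where the shares of all genes were the 32.2% and 12.9% above, and 0 in both CD93-positive libraries.

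Of the other PRC2 accessory genes, Lcorl, which encodes a PRC2-associated protein, was the one with a gene-end summit in CD93-positive replicate 2. It ranked 371 of 711 there (score 8.03) and 1685 and 502 in CD93-negative replicates 1 and 2 (scores 39.0 and 15.1). Of PRC1, both CD93-negative libraries listed Rnf2, the E3 ligase, at ranks 1353 and 2272, Pcgf1, which defines a variant form, at 3320 and 1026, Pcgf3 at 3791 and 1986, and Cbx8, a reader of the PRC2 mark, at 1466 and 2308. Of the deubiquitinase, Bap1, its catalytic subunit, ranked 1083 and 1259, and Asxl1, its cofactor, 5694 and 1749. Neither demethylase gene, Kdm6a or Kdm6b, had a gene-end summit, although both had one in their window in each CD93-negative library and Kdm6a in CD93-positive replicate 2.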

How the data were processed

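ATAC-seq summits of 4 libraries were used, 2 per group, with groups taken from the sample titles. Per the submitters' processing notes, the authors used Bowtie2, MACS2 and build mm10; versions, thresholds, read filters, fragment limits and any Tn5 shift: not given in the sources used here. Lists start at scores of 3.03 to 3.09, and this deposited score was taken as a −log10 p or q value, without a statement of which. Depth is unknown.

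Summits were joined to the 21887 nuclear protein-coding genes of RefSeq GRCm38.p6 by 2 rules: in the gene body or within 10000 bp of it, and within 1000 bp of either end. Start sites and strands came from the RefSeq promoter table. Summits of different libraries within 250 bp formed a site. Both rules were checked on simulated data, with summits placed at set distances from 200 genes. No list of artefact-prone regions was used. The members and lists were chosen with earlier results of these data known, so no test over members was made. All 10 members are named, as are other Polycomb genes with a gene-end summit in CD93-positive replicate 2 or both CD93-negative libraries, and neighbours at a member's site. Python 3.11.15, numpy 2.4.6, pandas 2.3.3 and matplotlib 3.10.9 were used.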

Additional observations from a re-analysis of the deposited data

How the results depend on the processing

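Counts of PRC2 genes depended on the window and the list length. With the gene body alone, CD93-positive replicate 2 had 1 gene (0 core, 1 accessory), CD93-negative replicate 1 had 6 (3 core), and CD93-negative replicate 2 had 2 core genes. The core genes lost were Suz12, Rbbp4 and Rbbp7, whose summits lay 12 to 112 bp before the start, just outside the gene body. Shares of all genes are not given here for the gene body alone or for the score limits. Within 1000 bp of a gene end, CD93-positive replicate 2 had 2 genes and 0 accessory genes, and CD93-negative replicate 2 had 1 accessory gene. With a score of at least 10, CD93-positive replicate 2 had 1 core gene. With equal list lengths, CD93-negative replicates 1 and 2 each had 3 genes and 1 core gene, replicate 1 had 2 accessory genes, and the difference between group means was 1.0 in place of 6.5 with CD93-positive replicate 1 kept at its 21 summits. With CD93-positive replicate 2 as the only CD93-positive library, an alternative chosen after seeing the data, it turned to -1.0. Leaving out 1 library at a time gave differences of 4.5 to 8.5 genes. The replicate block also gave 6.5; the labels do not say that equal numbers share an animal or day, and the numbers inside the summit names differ from the titles. Flanks of 5000 and 20000 bp and a score of at least 5 kept every count within 1.5 times. Sharing distances of 100 to 1000 bp gave 9 or 10 sites in more than 1 library, and merging summits within 500 bp changed no summit count.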

Other observations

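The far Jarid2 site stood apart from its neighbours in the list of CD93-positive replicate 2. Of the 30 highest-scoring summits there, 28 lay away from gene ends, against 17.4% of the whole list. In both CD93-negative lists, 21 of the 30 were also found. For these 21 the median rank was at 0.363% and 0.399% of the lists of CD93-negative replicates 1 and 2. Within each of those lists the Jarid2 site, at 32.0% and 89.7%, was placed lowest of the 21. It was singled out after its values were seen, and whether it lies in a region prone to artefactual signal was not tested.

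The site inside Phf19 ranked high in both CD93-negative lists and was absent from CD93-positive replicate 2. Of the first 33 summits by score in CD93-negative replicate 2, down to Phf19 itself, all 33 were in CD93-negative replicate 1 and 29 in CD93-positive replicate 2. Of the 18 that lay away from gene ends, Phf19 was 1 of 2 that CD93-positive replicate 2 did not list. CD93-positive replicate 2 also missed 2 of the 15 at gene ends. Over the whole list of CD93-negative replicate 2, 17.0% of summits lay away from gene ends. Among the 386 sites in the first 711 of both CD93-negative lists, CD93-positive replicate 2 listed 64.8%. The cut was set by the rank of Phf19 itself, after its values were seen. Whether the Phf19 site lies in a region prone to artefactual signal was not tested.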
